A study of Homo sapiens with 45 samples.

Results

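The ATF4 amino acid response genes followed here are a set of 35 genes, chosen by name from background knowledge of the response. The choice used no threshold on any value in these data, but earlier results of these data were known when it was made. All 35 were found once by symbol among the 60624 genes listed in each of 4 tables of gene counts. By role they were 7 transcription factors (ATF4, ATF3, ATF5, DDIT3, CEBPB, CEBPG and NUPR1), 5 effectors (DDIT4, CHAC1, TRIB3, SESN2 and PPP1R15A), 10 genes of amino acid synthesis and linked one-carbon metabolism (ASNS, PSAT1, PHGDH, PSPH, SHMT2, MTHFD2, ALDH18A1, PYCR1, CTH and CBS), 6 genes of amino acid transport (SLC7A11, SLC7A5, SLC3A2, SLC7A1, SLC38A2 and SLC1A5) and 7 genes of tRNA charging and tRNA export (AARS1, GARS1, IARS1, MARS1, SARS1, WARS1 and XPOT).

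As background, ATF4 is a basic leucine zipper transcription factor whose messenger RNA is translated well only when the initiation factor eIF2 is phosphorylated. The kinases that do this respond to uncharged tRNA (GCN2), unfolded protein in the endoplasmic reticulum (PERK), double-stranded RNA (PKR) and haem shortage or mitochondrial stress (HRI), and the common pathway is called the integrated stress response. ATF4 pairs with C/EBP factors at composite sites in its targets, which raise amino acid uptake, amino acid synthesis and tRNA charging, while DDIT3, TRIB3, CHAC1 and PPP1R15A belong to its stress and feedback branch. The counts measure transcripts, so translation of ATF4 was not measured.

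The cells were T47D, an established luminal, oestrogen receptor positive human breast cancer line, in 15 groups of 3 libraries, and all groups except 1 were kept in hypoxia. In the first table, called shRNA here, the groups were shCtrl cells (control hairpin) in normoxia, shCtrl cells in hypoxia, and hypoxic cells whose hairpin targets ZHX2, a zinc finger and homeobox factor (shZHX2). In the hexanediol table, hypoxic cells were a control group and groups given 0.5% or 1% 1,6-hexanediol, an alcohol that disturbs phase-separated condensates, for 24 h. The rescue table was made from hypoxic cells too: shCtrl with vector, shZHX2 with vector, and shZHX2 with a ZHX2 form labelled WT, PA or SA, whose sequence changes the labels leave unstated. The sgRNA table had 2 hypoxic pairs, sgCtrl with sgZHX2 and teton_control with teton_sgZHX2. Lentivirus infection and hygromycin or puromycin selection are given in the protocols. No source used here gives the oxygen level, the length of hypoxia outside the hexanediol groups, or whether replicates were separate cultures, so the p-values reflect spread among libraries that may be technical only. The study asked which genes hypoxia induces and ZHX2 raises, and how expression moves when phase separation is disturbed.

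Total counts were 14111216 to 27217814 per library. ZHX2 itself, the targeted gene, was at 16.4 to 21.6 CPM (counts scaled to library size) in shCtrl hypoxia and 3.75 to 6.79 CPM with shZHX2. In the rescue table its level was 30.5 to 34.3 CPM in shCtrl vector, 6.24 to 7.27 CPM in shZHX2 vector, 71.3 to 74.0 CPM with WT, 53.6 to 54.4 CPM with PA and 78.4 to 82.9 CPM with SA. The ZHX2 transcript did not fall in the libraries labelled sgZHX2 (47.9 to 51.3 CPM against 43.8 to 46.6 in sgCtrl) or teton_sgZHX2 (48.3 to 50.9 against 45.7 to 49.4 in teton_control), so these groups are named by their labels. By the test given below ZHX2 was called higher in sgZHX2 (log2 fold change 0.13), with no call in teton_sgZHX2 (0.05). It was also called higher than control with 0.5% and 1% hexanediol (0.6 and 0.56). Summed over 9 luminal markers, levels were 3605 to 59230 CPM with none at 0, while 3 basal markers summed to at most 4.92 CPM, 5 leukocyte markers to 9.06, 3 endothelial markers to 3.43 and 6 fibroblast markers to 72.5.

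Promoters were looked up in RefSeq windows on GRCh38.p14, from 250 bases before to 50 after each start site, and 30 of the 35 members had an entry. The windows were searched on both strands for TGATGNAA, the core of the C/EBP-ATF composite site to which ATF4 binds. It was present for 11 of the 30 members (36.7%), against 1217 of 27305 genes (4.46%). Counted by window, 1270 of all 35116 windows held it (3.62%). The share of windows was not counted for the members, and a gene with more windows has more chances of a match. The holders came from every role, and were ATF3 and CEBPG among the factors, CHAC1 among the effectors, ASNS among the synthesis genes, SLC3A2, SLC7A1 and SLC1A5 among the transporters, and GARS1, IARS1, MARS1 and AARS1 among the tRNA charging genes. The stretches of the 6 holders with the largest differences in 1% hexanediol are printed because they show the letters these genes have in common, on the strand of the gene, with the match in capitals. A match on the opposite strand reads as the reverse complement (CHAC1 and GARS1).
CHAC1, chr15:40953232-40953299, plus strand: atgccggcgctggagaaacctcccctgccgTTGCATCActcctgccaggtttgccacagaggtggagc
ASNS, chr7:97872439-97872506, minus strand: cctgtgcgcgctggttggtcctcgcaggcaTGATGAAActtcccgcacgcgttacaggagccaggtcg
GARS1, chr7:30594815-30594877, plus strand: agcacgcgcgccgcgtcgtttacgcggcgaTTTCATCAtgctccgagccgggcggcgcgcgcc
CEBPG, chr19:33374041-33374108, plus strand: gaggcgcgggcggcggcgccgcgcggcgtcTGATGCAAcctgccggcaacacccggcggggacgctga
SLC7A1, chr13:29595663-29595692, minus strand: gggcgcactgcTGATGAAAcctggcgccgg
ATF3, chr1:212565186-212565253, plus strand: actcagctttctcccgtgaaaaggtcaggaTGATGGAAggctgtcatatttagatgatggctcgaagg
The first base of the match lay 209 bases before the start site in CHAC1, 191 in ATF3, 68 in ASNS, 42 in CEBPG and 33 in GARS1, and inside the transcript in SLC7A1. A match is a description of letters, not a measured binding site.

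ATF4 was measured in every group. In the shRNA table its level was 336, 331 and 337 CPM in normoxia, 422, 415 and 422 in shCtrl hypoxia and 468, 455 and 446 with shZHX2. The hexanediol table gave 213, 227 and 203 CPM in control, 491, 384 and 434 CPM at 0.5% and 549.6, 599.7 and 536 CPM at 1%. ATF4 was called higher at each of these steps (adjusted p under 0.05 in edgeR's quasi-likelihood test over all genes of a table, the rule for every call here), but in hypoxia it was called lower with 2 other scalings given with the hypoxia results. Its rise with shZHX2 was small (log2 fold change 0.12 ± 0.03, adjusted p = 9.47e-05). The rescue levels were 400.3, 393 and 374 CPM in shCtrl vector, 712, 712 and 729 in shZHX2 vector, 467, 477 and 479 with WT, 603, 595 and 607 with PA and 800.0, 775 and 760.5 with SA. In the sgRNA table they were 330.1, 331 and 319 CPM in sgCtrl, 528, 570.0 and 561 in sgZHX2, 345, 345 and 349 in teton_control and 504, 514 and 495 in teton_sgZHX2. ATF4 was called higher in shZHX2 hypoxia, shZHX2 vector, sgZHX2 and teton_sgZHX2 than in the matching control, and no library of these groups overlapped with its control. With WT it fell but did not reach the level of shCtrl vector.

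Per kilobase of exon, the most abundant members differed between the control groups of the tables, which were normalised separately. The length used was that of all annotated exons of a gene joined, which can exceed that of the transcript present. The ranking of members is therefore approximate. SLC7A5, the large neutral amino acid carrier, led in shCtrl hypoxia at 349 ± 2.02 CPM per kilobase (SD, n = 3) and in sgCtrl at 1612 ± 10.1, followed by its partner chain SLC3A2 in shCtrl hypoxia at 225 ± 2.96. DDIT4, an inhibitor of mTORC1 that is also a hypoxia target, led in shCtrl vector at 1664 ± 24.3 CPM per kilobase. In the hexanediol control the top level was that of the small chromatin-linked factor NUPR1 at 109.6 ± 2.92, with the alanyl-tRNA synthetase AARS1 at 109 ± 0.548, and these do not differ beyond their spread. ASNS, asparagine synthetase, had few counts in the control groups of 2 tables, with 3, 2 and 5 counts in the hexanediol controls and 9, 7 and 9 counts in shCtrl hypoxia, where it did not pass the filter on low counts. The shRNA comparisons therefore cover 34 of the 35 members. Every member was tested in the other tables. The exons of ASNS overlap those of AC079781.5 on the same strand. Counts of AC079781.5 were 13.8% of those of ASNS in the shRNA table, 16.4% (hexanediol), 0.569% (rescue) and 1.44% (sgRNA). The ASNS counts are therefore uncertain, also if strand was used in counting.

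Positions on GRCh38 from GENCODE release 29 are given for the members that recur below. ATF4 (ENSG00000128272) lies on chromosome 22, 39519695 to 39522685, DDIT3 (ENSG00000175197) on chromosome 12, 57516588 to 57521737, CHAC1 (ENSG00000128965) on chromosome 15, 40952962 to 40956519, SLC7A11 (ENSG00000151012) on chromosome 4, 138164097 to 138242349, AARS1 (ENSG00000090861) on chromosome 16, 70252295 to 70289543, and PSAT1 (ENSG00000135069) on chromosome 9, 78297143 to 78330093.

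**Figure D1:**
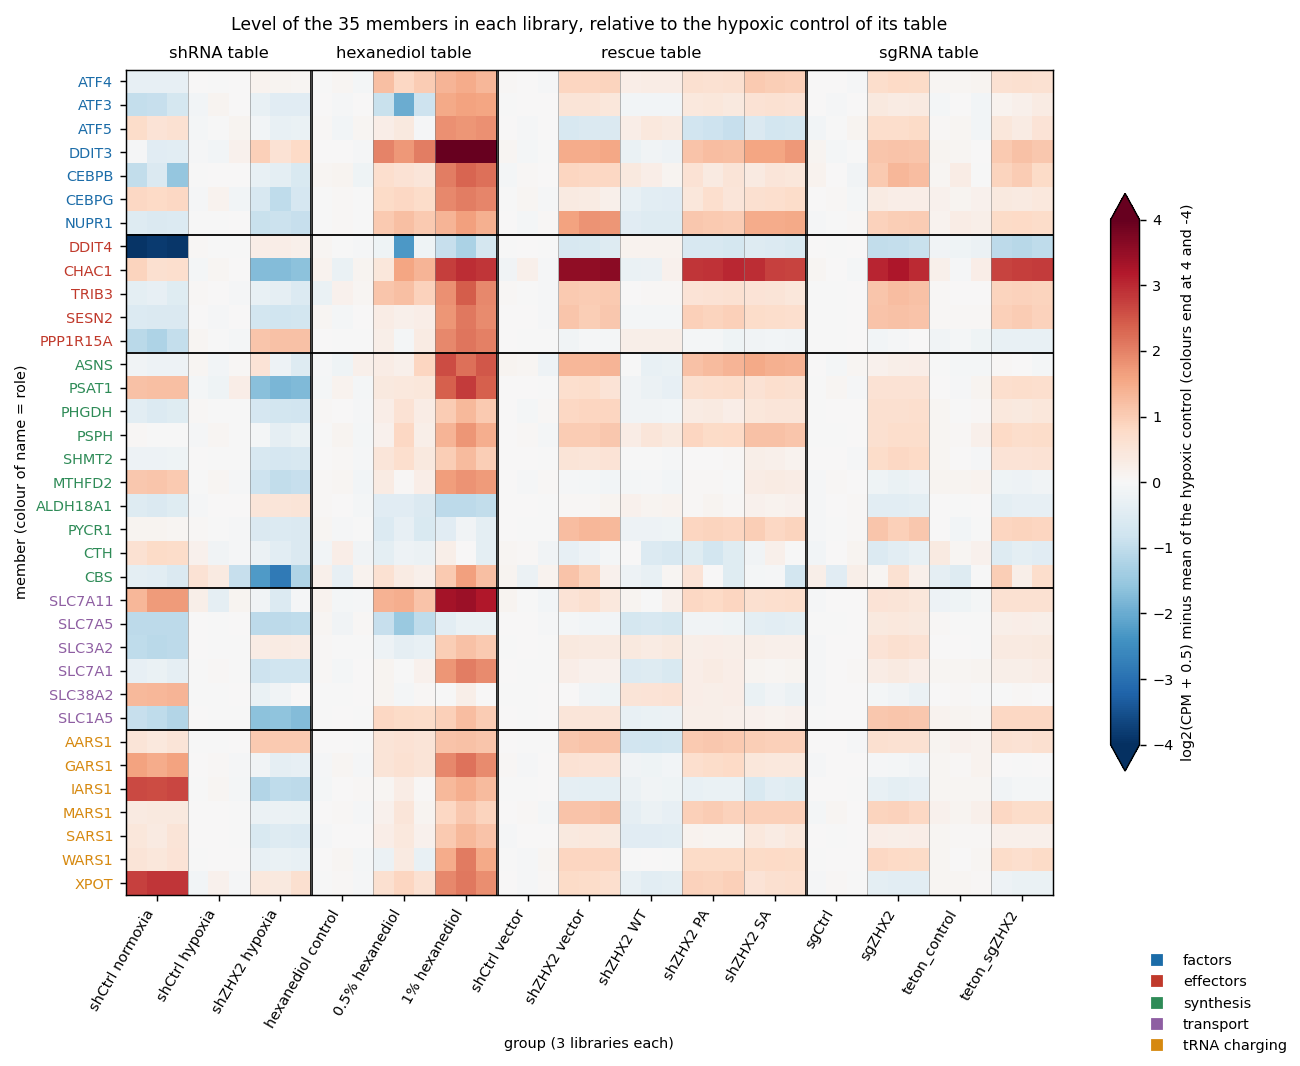
Level of each of the 35 members (rows, name coloured by role) in each of the 45 libraries (columns, 3 per group), as log2(CPM + 0.5) minus the mean of the hypoxic control of the same table, on a colour scale that ends at 4 and -4. The 1% hexanediol columns are red for most rows, CHAC1 is red in every group with shZHX2 vector, PA, SA or a ZHX2 guide, and the shZHX2 hypoxia columns are blue for most rows.

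With 1% hexanediol most of the set rose, including every factor and every tRNA charging gene. At that dose 29 of 35 members were called higher than control and 3 lower, where 30.2% of all 16840 genes tested were called higher and 32.3% lower. By at least 2-fold, 28 members were higher and 1 lower, against 11.1% and 12.7% of all genes. The median log2 fold change of the members was 1.56, and that of all genes was -0.04. At 0.5%, 17 members were higher and 5 lower (19.4% and 19.6% of all genes), with 6 and 2 past 2-fold (2.90% and 4.62%) and a median of 0.38 against 0.00 for all genes. Both doses were compared with the same control libraries. Between the doses, 30 members were higher at 1% than at 0.5% and 1 was lower (28.3% and 27.7% of all genes), 20 of them by 2-fold and none lower by 2-fold (8.94% and 9.49%), with a median of 1.20 against -0.02.

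All 7 factors were higher at 1% hexanediol. DDIT3 (CHOP), the stress factor linked to cell death, had 32.3, 32.1 and 30.5 CPM in control, 127, 106 and 131 at 0.5% and 780.4, 1019.6 and 775 at 1%. Every library lay above those of the dose below it, and DDIT3 was 27.1-fold higher at 1% (log2 4.76 ± 0.13, adjusted p = 5.02e-12). CEBPB, a dimer partner of ATF4, had 12.4, 12.7 and 10.4 CPM in control, 18.9, 17.8 and 16.7 at 0.5% and 50.4, 61.03 and 55.6 at 1% (log2 2.23 ± 0.11 at 1%). CEBPG, another partner, had 48.6, 51.02 and 48.4 CPM in control and 188, 204 and 191 at 1%. ATF3, a stress-induced repressor, did not follow one direction: 46.8, 44.7 and 45.97 CPM in control, 24.6, 11.2 and 25.3 at 0.5% and 132, 141 and 138 at 1%. It fell at the lower dose (log2 -1.17 ± 0.26) and rose at the higher one (1.58 ± 0.24). The second 0.5% library was the lowest of the 3 for ATF3, and without it ATF3 was still called lower but by less than 2-fold. NUPR1 and ATF5 were also higher at 1%, by log2 1.49 and 1.86.

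Of the 5 effectors, 4 were higher at 1%. CHAC1, which degrades glutathione, had 4, 1 and 4 counts in the control libraries, 7, 24 and 19 at 0.5% and 65, 89 and 73 at 1%, or 0.278, 0.0749 and 0.261 CPM in control, 0.451, 1.59 and 1.28 at 0.5% and 4.27, 4.89 and 4.54 at 1%. Its log2 fold change was 4.40 ± 0.41, adjusted p = 2.95e-07 at 1% and 2.35 ± 0.52 at 0.5%, from a control level resting on 9 counts in all. TRIB3, a pseudokinase that dampens AKT and ATF4 activity, had 6.81, 9.36 and 8.67 CPM in control, 18.3, 19.5 and 16.05 at 0.5% and 30.5, 46.6 and 32.7 at 1%. PPP1R15A (GADD34), which recruits the phosphatase that reverses eIF2 phosphorylation, was at 85.4, 83.5 and 82.03 CPM in control and 98.7, 79.4 and 105 at 0.5%, where it did not pass the test, and at 319, 374 and 336 at 1% (log2 2.04 ± 0.10). SESN2, a leucine sensor upstream of mTORC1, showed the same order, with no call at 0.5% and 1.98 at 1%. DDIT4 was the effector without a call at either dose, at 33.7, 31.9 and 30.97 CPM in control, 28.3, 6.09 and 28.8 at 0.5% and 16.9, 13.1 and 19.5 at 1%, where the second 0.5% library was far below the other two.

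Synthesis genes split. Of 10, 7 were higher and 2 lower at 1%. ASNS rose from 3, 2 and 5 counts in control to 60, 51 and 57 at 1% (log2 3.83 ± 0.36, adjusted p = 3.39e-07). PSAT1, which makes phosphoserine, had 9.87, 11.5 and 9.85 CPM in control, 13.9, 14.03 and 14.4 at 0.5% and 57.2, 75.8 and 56.1 at 1%. The mitochondrial folate enzyme MTHFD2 was at 114, 116 and 102 CPM in control and 357, 384 and 360.5 at 1%. PSPH and PHGDH, the other serine synthesis enzymes, and SHMT2, which splits serine in mitochondria, rose by log2 1.56, 1.13 and 1.09. The proline synthesis genes went the other way: ALDH18A1 had 52.9, 50.9 and 48.6 CPM in control, 37.2, 37.3 and 33.8 at 0.5% and 24.3, 24.3 and 25.2 at 1%, a fall called at both doses, and PYCR1 was lower by log2 -0.49 at 0.5% and -0.32 at 1%. PYCR1 lost its 1% call with a correction for GC content and length, as did the transporter SLC7A5. CBS was higher at 1%, but its reads can be shared with a near-identical second copy of the gene, so its values are uncertain throughout.

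Transport and tRNA charging genes completed the pattern. The cystine carrier SLC7A11 had 7.71, 6.52 and 6.65 CPM in control, 18.8, 19.7 and 15.98 at 0.5% and 74.1, 78.8 and 67.9 at 1%, 10.6-fold higher at 1% (log2 3.40 ± 0.11, adjusted p = 1.13e-11). SLC7A1, the cationic amino acid carrier, had 19.2, 17.8 and 18.9 CPM in control, 20.2, 18.6 and 20.9 at 0.5%, where no change was called, and 64.03, 78.9 and 70.7 at 1%. SLC3A2 and SLC7A5 form 1 heterodimer but differed: SLC3A2 was at 289, 275 and 278 CPM in control, 246, 218 and 226 at 0.5% and 560.1, 627 and 585 at 1%, and SLC7A5 at 420.0, 367 and 418 CPM in control, 212, 141 and 199 at 0.5% and 299.5, 335 and 334 at 1%. SLC7A5 was called lower at both doses and SLC3A2 lower at 0.5% and higher at 1%. All 7 tRNA charging genes were higher at 1%, from log2 0.95 for MARS1 to 2.00 for GARS1. GARS1, the glycyl-tRNA synthetase, had 193, 209.6 and 189 CPM in control, 279.7, 298 and 279 at 0.5% and 741, 896 and 731 at 1%, and XPOT, the tRNA exporter, 277, 289 and 268 CPM in control, 432, 501 and 419.8 at 0.5% and 1051, 1192 and 1016 at 1%. Cytosolic synthetases outside the set fell into 2 lists, which were also drawn up with earlier results of these data known. Of the 8 not listed as ATF4 targets none was called higher at 1% and 5 were lower, led by VARS1 (log2 -1.06) and FARSA (-0.72). The other 6 were placed among the other ATF4 targets, where CARS1, EPRS1, NARS1, TARS1 and YARS1 were higher (0.94, 0.83, 1.31, 1.54 and 1.70) and LARS1 had no call (-0.03).

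**Figure D2:**
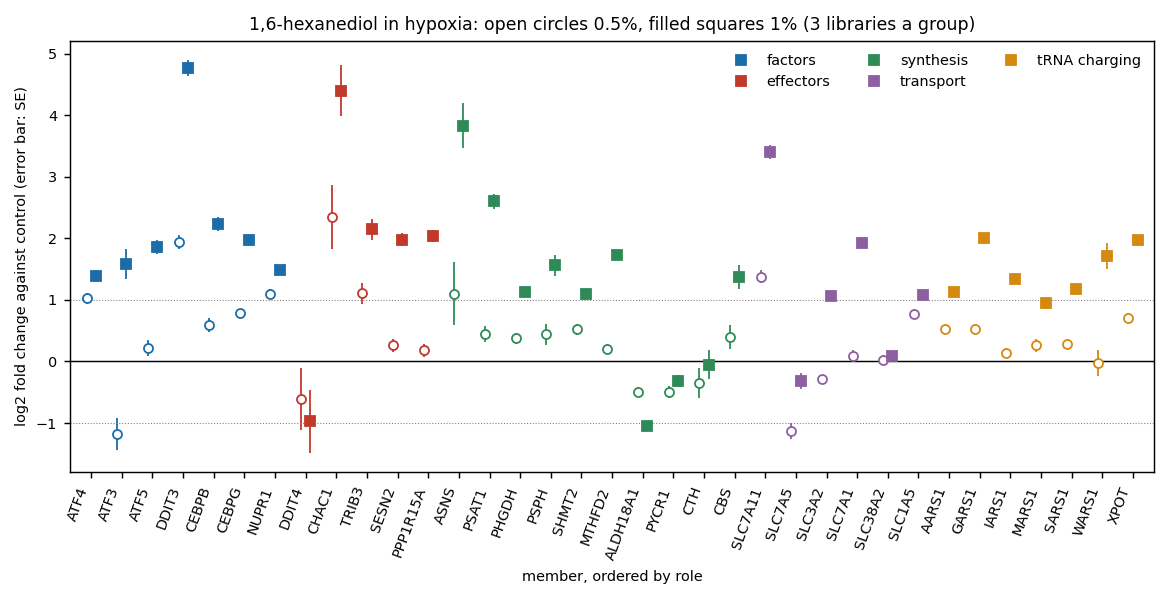
Log2 fold change against hexanediol control (vertical axis, bars are the SE) of each of the 35 members (horizontal axis, coloured by role), with open circles for 0.5% and filled squares for 1%, 3 libraries per group; dotted lines mark 2-fold. DDIT3, CHAC1, ASNS and SLC7A11 lie highest at 1%, ATF3 lies below 0 at 0.5% and above it at 1%, and ALDH18A1 lies below 0 at both doses.

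Related genes outside the set were counted from whole lists. Of 24 other ATF4 targets, 19 were higher and 1 lower at 1% hexanediol, with the stress cytokine GDF15 at log2 5.93 and the activin subunit INHBE at 4.74, while the secreted glycoprotein STC2 was lower (-3.02). Among 17 eIF2 kinases and eIF2 machinery genes 5 were higher and 7 lower, including PPP1R15B, the constitutive eIF2 phosphatase partner, at 1.59 and GCN1, the GCN2 activator, at -0.69. ER chaperones and degradation factors were 7 higher and 5 lower of 15, with HYOU1 at 1.90, HSPA5 at 1.42 and PDIA4 at -0.75. The summed level of the luminal markers was 25080 to 27900 CPM in control, 10850 to 15450 at 0.5% and 3605 to 3850 at 1%. At 0.5%, 2 of 9 were called higher and 3 lower (median log2 -0.08). At 1%, 8 of 9 were called lower (median log2 -2.20). None of the 9 was at 0 in any hexanediol group, and the other marker lists summed to at most 52.8 CPM there. The part of the luminal markers in the members' rise was not tested, and in bulk RNA fewer cells of a type cannot be told apart from less RNA per cell. The second 1% library had the highest level of its group for 30 of 35 members. Without the second libraries of both treated groups, 29 members were higher and 4 lower at 1%. Scaled by library size alone, 30 were higher and 1 lower at 1% and 23 and 4 at 0.5%, and the share of higher among all called genes went from 48.3% to 59.8% and from 49.7% to 66.0%.

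In the rescue table the set was higher when ZHX2 was depleted and lower when wild-type ZHX2 was added back. With shZHX2 vector 26 members were higher and 7 lower than in shCtrl vector (33.9% and 35.3% of 14302 genes), 10 of them higher by 2-fold (7.19%) and with a median of 0.57 against -0.01 for all genes. With WT in shZHX2 cells 6 were higher and 26 lower than with vector (35.1% and 34.6%), 10 lower by 2-fold (7.89%), with a median of -0.70 against 0.00. The comparisons of this table share groups, shZHX2 vector in particular, so their counts are not separate evidence. PA against vector gave 8 higher and 20 lower (24.7% and 22.9%), with a median of -0.13, and SA against vector 6 higher and 20 lower (20.2% and 21.5%), with a median of -0.11. Against WT, 25 members were higher and 6 lower with PA (33.2% and 33.7%; 9 higher by 2-fold, 7.41%; median 0.54), and 26 were higher and 6 lower with SA (32.1% and 32.0%; 8 higher by 2-fold, 5.86%; median 0.61). With scaling by library size alone PA gave 15 higher and 11 lower against vector and 29 and 3 against WT, and the share of higher among all called genes went from 52.0% to 76.4% and from 49.6% to 70.6%.

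CHAC1 had the largest changes of the set with shZHX2 vector and with WT, at 1.33, 1.82 and 1.45 CPM in shCtrl vector, 23.1, 22.9 and 24.1 in shZHX2 vector, 1.18, 1.23 and 1.76 with WT, 14.2, 14.5 and 15.98 with PA and 15.03, 12.9 and 12.8 with SA. The WT libraries overlapped with shCtrl vector, while those with PA and SA lay above both and below shZHX2 vector. The log2 fold changes were 3.92 ± 0.12, adjusted p = 8.88e-45 for shZHX2 vector and -4.08 ± 0.12, adjusted p = 7.64e-45 for WT. NUPR1 followed with 68.9, 64.5 and 69.7 CPM in shCtrl vector, 209, 237 and 233 in shZHX2 vector, 49.1, 46.9 and 46.9 with WT, 144, 142 and 139 with PA and 191, 190.4 and 193 with SA. DDIT3 was at 18.9, 16.8 and 17.7 CPM in shCtrl vector, 51.2, 50.2 and 52.8 in shZHX2 vector, 14.6, 16.02 and 15.2 with WT, 39.9, 42.5 and 41.5 with PA and 54.5, 53.8 and 60.4 with SA. For DDIT3 the SA libraries lay above shZHX2 vector and the WT libraries below shCtrl vector. SESN2 and TRIB3 rose with shZHX2 vector by log2 1.07 and 1.04 and changed with WT by -1.15 and -1. ATF5 was the factor that ran opposite, at 14.3, 13.7 and 14.4 CPM in shCtrl vector, 8.88, 9.32 and 9.27 in shZHX2 vector, 17.1, 19.1 and 18.3 with WT, 8.14, 7.76 and 7.23 with PA and 9.27, 8.38 and 8.40 with SA. DDIT4 also fell with shZHX2 vector (log2 -0.59) and rose with WT (0.72).

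Among the synthesis genes 7 of 10 rose with shZHX2 vector and 7 fell with WT. ASNS had 3.72, 3.58 and 2.90 CPM in shCtrl vector, 9.19, 9.23 and 9.35 in shZHX2 vector, 3.36, 2.63 and 2.73 with WT, 8.27, 8.88 and 9.52 with PA and 10.6, 9.94 and 9.70 with SA. Its levels with PA and SA overlapped or lay close to those of shZHX2 vector, and neither comparison with vector was called. PYCR1, the last enzyme of proline synthesis, had 147, 144 and 145 CPM in shCtrl vector, 342, 365 and 359 in shZHX2 vector, 125, 125 and 128 with WT, 266, 268 and 266 with PA and 288, 261 and 270.4 with SA. PSPH, PHGDH and PSAT1 of the serine route rose with shZHX2 vector by log2 1.09, 0.85 and 0.66 and changed with WT by -0.68, -0.98 and -0.89. MTHFD2 had log2 -0.07 for shZHX2 vector, with overlapping groups, and no call for WT.

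Among the transporters, SLC7A11 had 19.4, 17.8 and 16.7 CPM in shCtrl vector, 26.4, 27.9 and 24.02 in shZHX2 vector, 19.4, 17.8 and 20.7 with WT, 32.1, 31.4 and 32.7 with PA and 28.3, 28.6 and 29.2 with SA. The glutamine carrier SLC1A5 was at 213, 209 and 216 CPM in shCtrl vector, 296, 299 and 296 in shZHX2 vector, 172, 178 and 179 with WT, 249.7, 249.7 and 245 with PA and 239, 235 and 238 with SA. SLC38A2, a system A carrier for small neutral amino acids, ran opposite, lower with shZHX2 vector (log2 -0.10, adjusted p = 0.0506 with a replicate block) and higher with WT (0.65). SLC7A5 was lower in both comparisons (log2 -0.10 and -0.58). Of the tRNA charging genes, AARS1 was at 267, 262 and 261 CPM in shCtrl vector, 560.4, 580.2 and 581 in shZHX2 vector, 156, 151 and 157 with WT, 546, 554 and 539 with PA and 517, 512 and 506 with SA. The WT libraries were below every shCtrl vector library, and those with PA and SA were close to shZHX2 vector. MARS1, the methionyl-tRNA synthetase, had 62.9, 64.4 and 59.2 CPM in shCtrl vector, 138, 137 and 145 in shZHX2 vector, 48.3, 52.3 and 49.4 with WT, 120.3, 126 and 119 with PA and 121, 121 and 121 with SA. The tRNA exporter XPOT changed by log2 0.73 with shZHX2 vector and -1.10 with WT. IARS1 was the exception, lower with shZHX2 vector (log2 -0.39) and higher with WT (0.20).

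Against vector, PA and SA moved the members by less than 2-fold, apart from CBS with SA (-1.04). The CBS call was lost with the GC and length correction (-0.85), with only the groups compared (-1.03), and without shZHX2 vector replicate 1 (-0.83), shZHX2 vector replicate 2 (-0.99) or SA replicate 3 (-0.84). Of the factors 6 were lower and 1 higher with PA, led by NUPR1 (log2 -0.68 ± 0.03), and 2 were lower and 4 higher with SA, with CEBPG higher (0.40 ± 0.06) and CEBPB lower (-0.40 ± 0.05; -0.19 and no longer called with the GC and length correction). Of the effectors 4 of 5 were lower with PA and 3 with SA, and CHAC1 was at -0.65 ± 0.08 and -0.79 ± 0.08. PHGDH was lower with both forms, by -0.53 with PA and -0.37 with SA. Among the tRNA charging genes 3 were higher and 4 lower with PA, and none higher and 6 lower with SA. Corrected for GC content and length, 5 members were higher and 12 lower with PA, and 5 and 16 with SA; with PA 13 calls were lost and 2 turned.

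**Figure D3:**
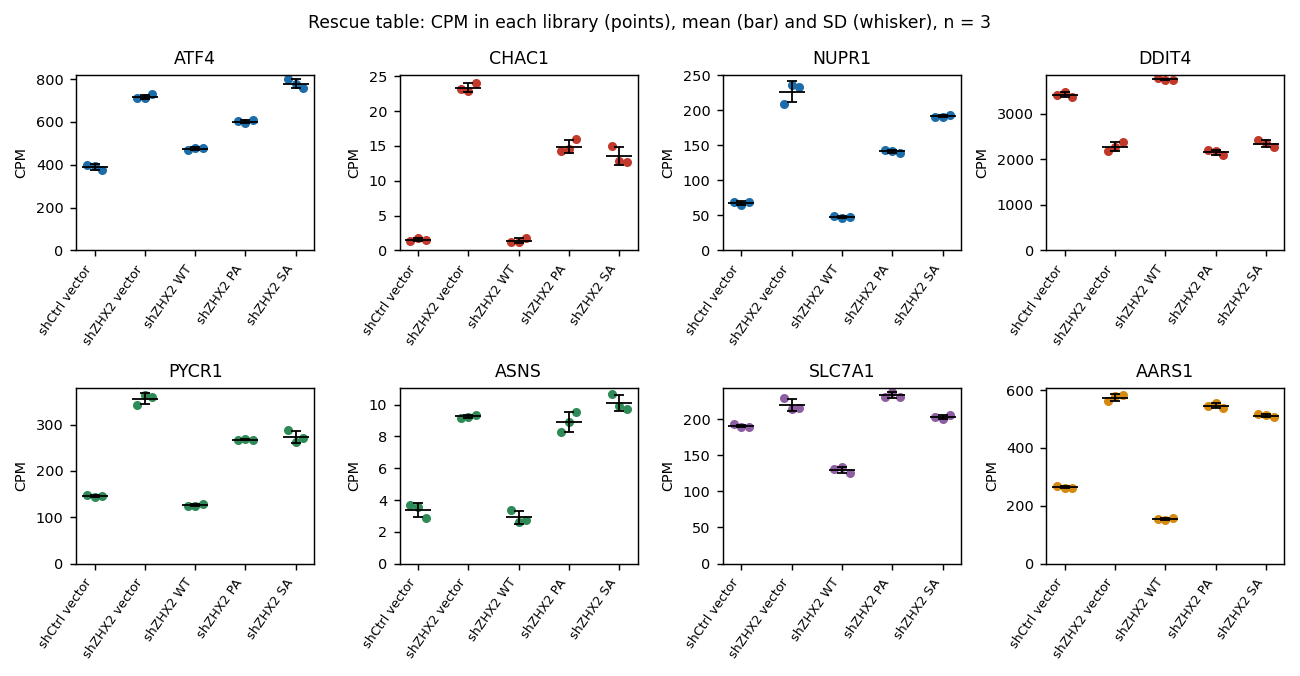
CPM in each library (points, linear axes from 0), with the mean (bar) and SD (whisker, n = 3), in the 5 groups of the rescue table for 8 members coloured by role. WT libraries overlap with shCtrl vector for CHAC1 and lie below it for NUPR1, PYCR1, SLC7A1 and AARS1, while DDIT4 is high in shCtrl vector and WT and low in the other groups.

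Outside the set, 19 of 24 other ATF4 targets were higher and 5 lower with shZHX2 vector, led by the stress hormone FGF21 (log2 2.71) and GDF15 (2.21), and 18 were lower and 3 higher with WT (FGF21 -3.42, INHBE -2.93). Against WT, FGF21 was higher by 2.84 with PA and 2.82 with SA. The eIF2 kinases and machinery were 9 higher and 7 lower of 17 with shZHX2 vector. The ER list was 9 higher and 4 lower of 15, with SDF2L1 at 1.75 and HERPUD1 at 1.37. Luminal markers summed to 46390 to 47890 CPM in shCtrl vector, 30980 to 32280 in shZHX2 vector, 44220 to 44890 with WT, 29220 to 29440 with PA and 32480 to 32920 with SA, and all 9 were lower with shZHX2 vector and higher with WT. Mitochondrial genes took 0.749% to 0.807% of counts in the vector groups, 0.312% to 0.333% with WT and 1.12% to 1.26% with PA and SA. The part of either in the members' differences was not tested.

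The libraries labelled sgZHX2 and teton_sgZHX2 showed the set higher as well. Against sgCtrl, 25 members were higher and 8 lower in sgZHX2 (37.0% and 36.1% of 15781 genes), 7 of them higher by 2-fold (8%), with a median of 0.59 against 0.01. Against teton_control, 25 were higher and 8 lower in teton_sgZHX2 (34.4% and 34.7%), 2 higher by 2-fold (5.16%), with a median of 0.45 against 0.00. The 4 groups are separate libraries, and 24 members were higher in both comparisons, 7 were lower in both and none was called in opposite directions. The matching shares over all genes were not counted. CHAC1 had 3.40, 3.16 and 2.93 CPM in sgCtrl, 30.1, 33.7 and 28.2 in sgZHX2, 3.76, 3.07 and 3.88 in teton_control and 23.5, 24.2 and 25.03 in teton_sgZHX2, with log2 fold changes of 3.27 ± 0.09, adjusted p = 1.25e-32 and 2.77 ± 0.09, adjusted p = 7.43e-30. TRIB3 was at 167, 167 and 168 CPM in sgCtrl, 363, 390.2 and 379 in sgZHX2, 171, 170.1 and 168 in teton_control and 311, 313 and 309 in teton_sgZHX2. CEBPB was at 37.2, 34.1 and 31.1 CPM in sgCtrl, 71.1, 85.7 and 80.6 in sgZHX2, 36.3, 42.4 and 33.8 in teton_control and 63.5, 69.9 and 58.00 in teton_sgZHX2. For these genes each library with the ZHX2 guide lay above every library of its control.

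DDIT3 rose by log2 1.15 in sgZHX2 and 1.05 in teton_sgZHX2. PYCR1 had 124, 126 and 132 CPM in sgCtrl, 273, 248 and 267 in sgZHX2, 129, 119 and 125 in teton_control and 233, 235 and 234 in teton_sgZHX2. SLC1A5 was at 180.5, 185 and 185 CPM in sgCtrl, 391, 395 and 388 in sgZHX2, 203, 199 and 195 in teton_control and 327, 323 and 323 in teton_sgZHX2, and MARS1 at 87.98, 97.6 and 94.7 CPM in sgCtrl, 175, 176 and 168 in sgZHX2, 106, 101 and 108 in teton_control and 167, 157 and 156 in teton_sgZHX2. All 7 factors, 5 of 6 transporters and 4 of 7 tRNA charging genes were higher in sgZHX2. Members that fell in both comparisons included DDIT4 (log2 -0.94 in sgZHX2 and -0.87 in teton_sgZHX2) and the tRNA charging genes GARS1, IARS1 and XPOT, of which GARS1 had overlapping groups in sgZHX2. With the correction for GC content and length only 1 tRNA charging gene stayed lower in each comparison: the calls of IARS1 and XPOT were lost in sgZHX2, and in teton_sgZHX2 that of XPOT was lost and IARS1 turned to 0.06. DDIT4 had 2018, 1973 and 2044 CPM in sgCtrl and 1027, 1039.7 and 1087 in sgZHX2. ASNS was higher in sgZHX2 by only log2 0.23 and was not called in teton_sgZHX2.

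The difference of the effects was tested as an interaction, teton_sgZHX2 against its control minus sgZHX2 against its control. It was higher for 3 members and lower for 17 (12% and 8.33% of all genes), with a median of -0.14 against -0.01. Of the 31 members called in the same direction in both, 26 had the smaller change in teton_sgZHX2. That share was not counted over all genes. Their 2-fold calls were also fewer in teton_sgZHX2 (815 higher and 665 lower) than in sgZHX2 (1263 and 961). SLC1A5 differed by log2 -0.39 ± 0.04, adjusted p = 6.5e-11, NUPR1 by -0.45 ± 0.06 and SLC3A2 by -0.24 ± 0.03. With the correction for GC and length, 1 member was higher and 9 lower in this difference, and 12 of the 20 calls were lost.

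Across 3 comparisons that share no library, 22 members were higher with shZHX2 vector, sgZHX2 and teton_sgZHX2, out of 26, 25 and 25 higher in each. They were ATF4, ATF3, DDIT3, CEBPB, CEBPG and NUPR1, the effectors CHAC1, TRIB3 and SESN2, the synthesis genes PSAT1, PHGDH, PSPH, SHMT2 and PYCR1, the transporters SLC7A11, SLC3A2, SLC7A1 and SLC1A5, and AARS1, MARS1, SARS1 and WARS1. The share of all genes called higher in all 3 was not counted. DDIT4, IARS1 and MTHFD2 were lower in all 3, although the correction for GC content and length turned MTHFD2 with shZHX2 vector and in sgZHX2, turned IARS1 in teton_sgZHX2 and ended its call in sgZHX2. Of the other ATF4 targets 15 were higher and 8 lower of 25 in sgZHX2, with INHBE at log2 2.12 and FGF21 at 1.81, and 13 were higher and 9 lower in teton_sgZHX2. The eIF2 list was 5 higher and 10 lower of 17 in each comparison. Luminal markers summed to 38370 to 39080 CPM in sgCtrl, 39410 to 40300 in sgZHX2, 36130 to 36510 in teton_control and 35860 to 37150 in teton_sgZHX2, with 2 of 9 called higher and 4 lower in sgZHX2 and 1 and 5 in teton_sgZHX2. Of the 6 fibroblast markers only 2 were tested, and they did not move together. In sgZHX2 1 was called higher and 1 had no call, and in teton_sgZHX2 1 was higher and 1 lower. The 6 fibroblast markers summed to 26.5 to 29.5 CPM in sgCtrl, 53.6 to 55.5 in sgZHX2, 28.6 to 31.2 in teton_control and 48.5 to 48.6 in teton_sgZHX2, where COL1A2 was at 0. The 3 basal markers summed to 1.41 to 2.21, 3.81 to 4.92, 1.53 to 2.27 and 2.90 to 3.88 CPM in the same order, and both of those tested, KRT5 and KRT14, were called higher in each comparison. Mitochondrial genes took 2.51% to 2.71% of counts, 1.67% to 1.71%, 2.83% to 2.95% and 1.69% to 1.82% in that order. The part of these markers and of the mitochondrial share in the differences was not tested.

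**Figure D4:**
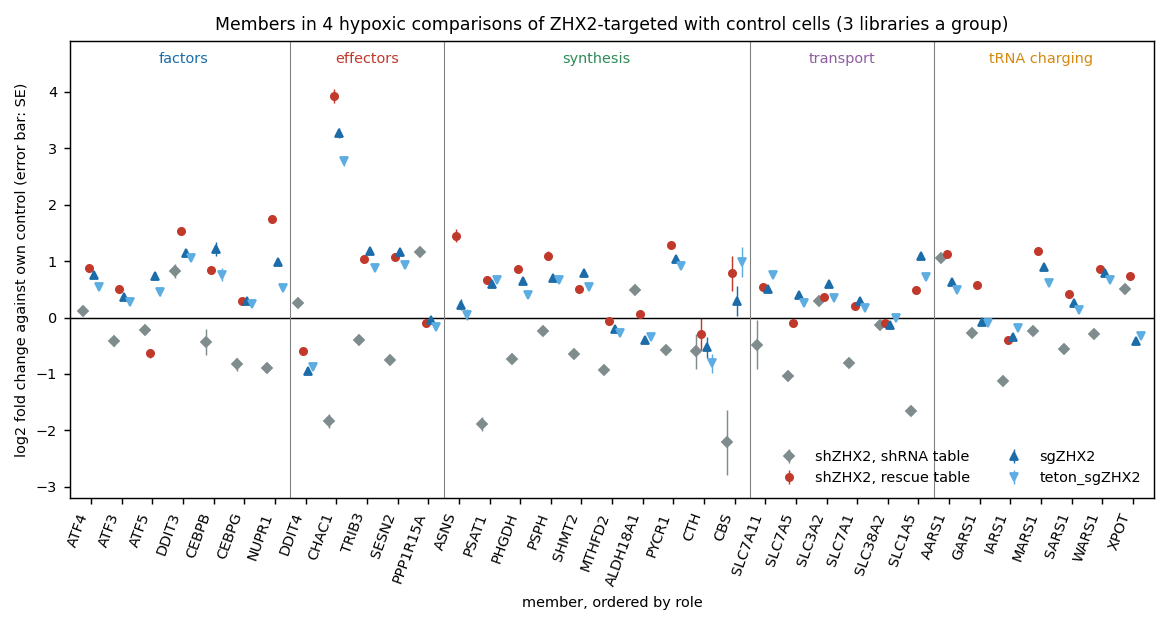
Log2 fold change against the matching control (vertical axis, bars are the SE) of each member (horizontal axis, ordered by role) with shZHX2 in the shRNA table (grey diamonds), shZHX2 vector in the rescue table (red circles), sgZHX2 (dark blue triangles) and teton_sgZHX2 (light blue triangles), 3 libraries per group. Most red and blue symbols lie above 0 and most grey diamonds below it, with CHAC1 farthest apart.

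In the shRNA table the hairpin went with lower levels of most members, unlike in the rescue table. With shZHX2 in hypoxia 8 members were higher and 23 lower (33.6% and 33.2% of 14903 genes), 2 higher and 6 lower by 2-fold (9.21% and 9.64%), with a median of -0.46 against 0.02 for all genes. PSAT1 had 34.8, 35.5 and 35.5 CPM in normoxia, 14.2, 13.3 and 18.3 in shCtrl hypoxia and 4.45, 3.86 and 4.09 with shZHX2 (log2 -1.89 ± 0.12, adjusted p = 2.04e-21 for shZHX2). CHAC1 was at 25.5, 20.9 and 21.8 CPM in normoxia, 12.6, 14.2 and 13.4 in shCtrl hypoxia and 3.64, 3.65 and 3.98 with shZHX2, from 193, 224 and 220 counts in shCtrl hypoxia and 63, 67 and 72 with shZHX2. SLC1A5 had 265, 249 and 221 CPM in normoxia, 505, 504 and 503 in shCtrl hypoxia and 162, 165 and 152 with shZHX2. These are members that rose with shZHX2 vector in the rescue table. Lower levels with shZHX2 were also called for 7 of 9 synthesis genes tested, 4 of 6 transporters and 5 of 7 tRNA charging genes.

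The 8 members higher with shZHX2 were ATF4, DDIT3, DDIT4, PPP1R15A, ALDH18A1, SLC3A2, AARS1 and XPOT. AARS1 rose with shZHX2 from 183, 185 and 189.9 to 387, 386 and 386 CPM (log2 1.06 ± 0.03, adjusted p = 8.81e-38), and PPP1R15A from 44.2, 41.4 and 39.7 to 90.6, 94.02 and 95.4 (log2 1.16 ± 0.06). DDIT3 had 7.49, 7.21 and 8.76 CPM in shCtrl hypoxia and 15.7, 11.97 and 13.9 with shZHX2, and its exons overlap those of MARS1 on the opposite strand, so that counts of the 2 genes are uncertain where strand was not used. The same holds for ATF5 with NUP62, SHMT2 with NDUFA4L2 and SLC7A11 with its antisense gene. Of the 30 members called with the hairpin in both tables, 18 were lower here and higher in the rescue table, 2 were higher here and lower there (DDIT4 and PPP1R15A), 5 were higher in both (ATF4, DDIT3, SLC3A2, AARS1 and XPOT) and 5 lower in both (ATF5, MTHFD2, SLC7A5, SLC38A2 and IARS1). The tables were fitted separately, so the difference between them was not tested, and these patterns were not counted over all genes. Beside this, mitochondrial genes took 11.9% to 12.4% of counts with shZHX2 and 9.12% to 9.57% in shCtrl hypoxia, and luminal markers summed to 27350 to 27630 and 58540 to 59230 CPM. Their part in the result was not tested. Other ATF4 targets were 6 higher and 10 lower of 24, with INHBE at log2 -3.80 and the ubiquitin ligase adaptor KLHL24 at 1.55. ER genes were 11 higher and 1 lower of 15, including EDEM1 at 1.21. With library size as the only scaling 8 members were higher and 16 lower, and 67.6% of all called genes were higher in place of 50.3%.

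In hypoxia the set as a whole went both ways, while the tRNA charging genes were all lower. Against normoxia 16 of 34 members were higher and 16 lower (43.1% and 36.8% of all genes), 5 and 7 by 2-fold (15.3% and 21.8%), with a median of 0.10 against 0.12 for all genes. These shares are near the background. Factors were 5 higher and 2 lower of 7, effectors 4 and 1 of 5, transporters 4 and 2 of 6, synthesis genes 3 and 4 of 9, and all 7 tRNA charging genes were lower. DDIT4 had 18.01, 19.2 and 18.5 CPM in normoxia and 289, 274 and 273 in hypoxia, 15-fold higher (log2 3.91 ± 0.04, adjusted p = 1.49e-61). PPP1R15A was at 19.4, 17.3 and 21.4 CPM in normoxia and 44.2, 41.4 and 39.7 in hypoxia, and ATF3 at 15.1, 15.6 and 18.1 CPM in normoxia and 27.6, 32.1 and 30.5 in hypoxia. SLC7A5, SLC3A2 and SLC1A5 rose together, by log2 1.05, 1.05 and 1.04. SLC7A5 had 806, 794 and 803 CPM in normoxia and 1664, 1646 and 1661 in hypoxia.

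The largest falls in the set were those of XPOT and IARS1, both genes of tRNA charging and export. XPOT was at 93.6, 102 and 101 CPM in normoxia and 12.5, 15.3 and 13.02 in hypoxia (log2 -2.86 ± 0.07, adjusted p = 5.98e-40). IARS1, the isoleucyl-tRNA synthetase, was at 115, 112 and 119 CPM in normoxia and 17.98, 19.1 and 17.3 in hypoxia, and GARS1 at 143, 133 and 144 CPM in normoxia and 47.7, 47.9 and 44.9 in hypoxia. The transporter SLC7A11 had 2.37, 3.20 and 3.21 CPM in normoxia and 0.847, 0.38 and 0.73 in hypoxia, from 13, 6 and 12 counts, and SLC38A2 196, 198 and 204 CPM in normoxia and 78.4, 78.5 and 80.8 in hypoxia. PSAT1 and MTHFD2 changed by log2 -1.21 and -1.09. Of the 8 synthetases not listed as ATF4 targets 5 were lower and 2 higher, with RARS1 at log2 -2.88, FARSB at -2.44 and QARS1 at 0.74. Of the 17 eIF2 genes 14 were lower and 2 higher, with EIF2B3 at -2.91. Other ATF4 targets were 14 higher and 9 lower of 24, with rises led by VLDLR (2.85) and SLC43A1 (2.28) and falls led by the synthetases EPRS1 (-3.58) and LARS1 (-3.26).

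The hypoxia differences moved with the base composition of the genes. Across genes, Spearman's rho between the log2 fold change and exon GC content was 0.694, as a description over genes that share the same 6 libraries. The 8 members with GC under 45% (CEBPG, PSAT1, MTHFD2, CTH, SLC7A11, SLC38A2, IARS1 and XPOT) were all lower, with a median of -1.27. The 27 members at 45% or more, which include the untested ASNS, were 16 higher and 8 lower. The matching shares of all genes in these GC ranges were not counted. With a correction for GC content and length, 10 members were higher and 16 lower. ATF4 then turned from log2 0.33 to -0.34, TRIB3 from 0.40 to -0.38, SESN2 from 0.57 to -0.17 and SHMT2 from 0.19 to -0.37, while DDIT3, CEBPB, CEBPG, MTHFD2, CTH, SLC7A11 and SLC38A2 lost their calls. With library size alone as scaling, which moved the median of all genes by -0.49, ATF4 was also called lower (-0.16), as were SHMT2 (-0.29) and SLC7A1 (-0.16), with 8 members higher and 20 lower and 29.6% of all called genes higher in place of 53.9%. All 7 tRNA charging genes were still lower under the GC correction (median -0.88), with IARS1 at -1.85, XPOT at -1.68 and GARS1 at -1.56, and DDIT4 and ATF3 were still higher at 3.17 and 1.14. Mitochondrial genes took 4.55% to 4.76% of normoxic and 9.12% to 9.57% of hypoxic counts, and luminal markers summed to 22580 to 24330 and 58540 to 59230 CPM. KRT8 alone averaged 12743 CPM in normoxia and 35121 CPM in hypoxia. Of the 9 luminal markers 7 were called higher and 2 lower, ESR1 (log2 -0.37) and PGR (-1.89). The part of the mitochondrial share and of these markers was not tested.

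**Figure D5:**
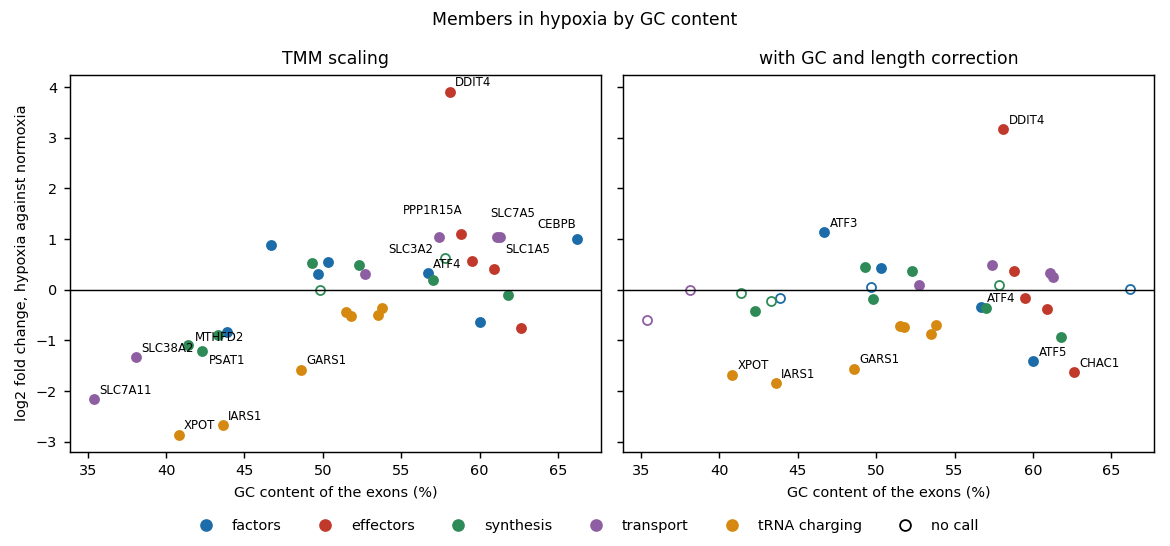
Log2 fold change in hypoxia against normoxia (vertical axis) of each member (points, coloured by role; open points have no call) by the GC content of its exons in percent (horizontal axis), with TMM scaling on the left and with the GC and length correction on the right. On the left the members under 45% GC all lie below 0; on the right XPOT, IARS1 and GARS1 remain low, DDIT4 remains high and ATF4 lies below 0.

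In the other comparisons rho with GC content was 0.563 in sgZHX2, 0.467 in teton_sgZHX2, -0.489 for their difference, 0.257 with shZHX2 vector, -0.382 for WT, -0.482 for PA and -0.541 for SA against vector, 0.158 and 0.181 for PA and SA against WT, -0.222 with shZHX2 in the shRNA table, and -0.06, -0.296 and -0.314 for 0.5% hexanediol, 1% and 1% against 0.5%. The GC correction left 29 members higher and 2 lower at 1% hexanediol, 27 and 5 with shZHX2 vector, 26 and 5 in sgZHX2 and 24 and 6 in teton_sgZHX2. In the same order the member median went from 1.56 to 1.63, 0.57 to 0.58, 0.59 to 0.37 and 0.45 to 0.30. The correction turned MTHFD2 to 0.16, SLC38A2 to 0.35 and SLC7A5 to -0.09 in sgZHX2, and in teton_sgZHX2 SLC7A5 to -0.12 and IARS1 to 0.06. With shZHX2 vector it turned MTHFD2 to 0.12 and SLC38A2 to 0.16.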

How the data were processed

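RNA from T47D cells was sequenced as polyA libraries with 150 bp read pairs, per the labels' protocols. The authors deposited whole-number counts of reads per gene in 4 tables, with no normalisation. FastQC, HISAT2, featureCounts, DESeq2 and the hg38 build are named, with no version, per the submitters' processing notes. Annotation and strandedness of counting: not given in the sources used here. Columns headed sgNC were taken as the sgCtrl libraries, since the other columns of that table match other titles.

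The test was edgeR 4.0.16 under R 4.3.3 (filterByExpr, TMM, robust quasi-likelihood fit), with 1 fit per table over all of its groups and Benjamini-Hochberg adjustment over all genes tested. A call is an adjusted p under 0.05; 2-fold calls also reach 1 or more in absolute log2 fold change. CPM values use TMM-scaled library sizes within a table; the standard error is the log2 fold change over root F. Genes tested numbered 14903 (shRNA), 16840 (hexanediol), 14302 (rescue) and 15781 (sgRNA), and the common biological coefficients of variation were 4.15%, 10.2%, 3.16% and 2.81%. Total counts per library were 17476890 to 19480495, 14111216 to 17713327, 18056398 to 24760885 and 21225854 to 27217814. On simulated counts with 200 changed genes the fit recovered 97% of 2-fold changes for shZHX2 in the shRNA table and 97% for 1% hexanediol, and 100% for shZHX2 vector and sgZHX2. In the same order it recovered 86.6%, 70.1%, 95.5% and 100% of 1.5-fold changes. Unchanged genes made up 7.8%, 6.35%, 4.83% and 6.98% of the calls on simulated counts. There all other genes had the same mean in every group, with no shift linked to GC content. Far more than 200 genes were called in the data, so these shares need not hold for the calls given here. Genes with low counts were not among those changed, so recovery for members with few counts was not measured.

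The members and lists were chosen with earlier results of these data known. All members may be named; up to 3 per role and comparison, called with groups that did not overlap and with the largest absolute log2 fold change, are those given by library, together with ATF4, and up to 2 genes per direction for other lists. Other members are given by library where a contrast with these turned on them, chosen after their values were seen. Positions, GC content and length come from GENCODE release 29.

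Alternatives were DESeq2 1.42.0, RLE size factors, library size only, no low-count filter, only the groups compared, a replicate block, a correction for GC content and length, both together, leaving out each library, and leaving out the second libraries of both hexanediol groups. The 45 replicate pairs differed by more than counting noise (chi-square per degree of freedom 1.77 to 29.5). Pairing by replicate number was checked by correlating deviations from group means. Of 22 pairs of groups, only 0.5% and 1% hexanediol had every correlation over 0.1 (0.280, 0.493 and 0.279). There 4 of 6 libraries correlated best with their own number. In both groups the second library stood out. Its chi-square per degree of freedom was 29.5 and 27.3 at 0.5% and 9.77 and 9.9 at 1%, against 3.48 and 2.04 between the other libraries. Between those groups pairing cannot be told apart from this. All 6 libraries correlated best with their own number for teton_control with teton_sgZHX2, at 0.037, 0.114 and 0.116. The same was true of WT with PA, at 0.0304, 0.0343 and 0.0453. For hexanediol control with 1% it was 5 of 6, at 0.0231, 0.0792 and 0.0732. The main fit used no replicate block.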

Additional observations from a re-analysis of the deposited data

Results flagged for a closer look

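The effect of the ZHX2 guide differed between the teton and the other guide groups for 20 members, by the interaction test with edgeR over all genes. Values are the teton_sgZHX2 effect minus the sgZHX2 effect on the log2 scale. Among the factors they were ATF4 -0.22, ATF5 -0.29 and NUPR1 -0.45, and among the effectors CHAC1 -0.50, TRIB3 -0.30 and SESN2 -0.23. Synthesis genes were PHGDH at -0.26, SHMT2 at -0.24 and PYCR1 at -0.13. Transporters were SLC7A11 at 0.25, SLC7A5 at -0.16, SLC3A2 at -0.24, SLC7A1 at -0.14, SLC38A2 at 0.14 and SLC1A5 at -0.39. The tRNA charging genes were AARS1 at -0.15, IARS1 at 0.16, MARS1 at -0.28, SARS1 at -0.11 and WARS1 at -0.14. With the GC and length correction 12 of these 20 calls were lost: ATF5, CHAC1, SESN2, PYCR1, SLC7A11, SLC7A5, SLC7A1, SLC38A2, AARS1, IARS1, SARS1 and WARS1. ATF5, PYCR1, SARS1, SLC7A1, SLC38A2, WARS1 and CHAC1 also lost their call when single libraries were left out.

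For 20 members the shZHX2 libraries lay on one side of their controls in the shRNA table and on the opposite side in the rescue table. The difference itself was not tested, because the tables were fitted separately, and the share of all genes that did so was not counted. Values are the shZHX2 effect in the rescue table minus that in the shRNA table on the log2 scale. Factors were ATF3 at 0.92, CEBPG at 1.13 and NUPR1 at 2.63. Effectors were DDIT4 at -0.84, CHAC1 at 5.75, TRIB3 at 1.44, SESN2 at 1.83 and PPP1R15A at -1.25. The synthesis genes were PSAT1 at 2.55, PHGDH at 1.58, PSPH at 1.33, SHMT2 at 1.16, PYCR1 at 1.86 and CBS at 2.99. SLC7A1 was at 1.01 and SLC1A5 at 2.14. Among tRNA charging genes GARS1 was at 0.85, MARS1 at 1.41, SARS1 at 0.97 and WARS1 at 1.15. In the shRNA table TRIB3 (-0.16), PSPH (-0.01), GARS1 (-0.04), MARS1 (-0.01) and WARS1 (-0.06) lost their call with library size only, and CBS with the block and GC correction together. In the rescue table CBS lost its call under most alternatives, and PPP1R15A without shZHX2 vector replicate 1. ZHX2 fell in both tables, by log2 -1.86 and -2.22.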

How the results depend on the processing

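Counts of members called are given as the alternative's value against the main one. The calls at 1% against 0.5% hexanediol were kept by every member under every alternative run. Members higher in hypoxia were 8 with library size only and 10 with the GC and length correction, with or without the block (main 16). Members lower at 1% hexanediol were 1 with DESeq2 and with library size only (main 3), and 1 to 3 when 1 library was left out. Members lower at 1% against 0.5% were 2 with the GC and length correction, with the block added, and without the second libraries (main 1), and 1 to 2 when 1 library was left out. For PA against vector, higher members were 15 with library size only and 5 without the low-count filter and with the GC and length correction (main 8), and lower members 11 and 12 with library size only and the GC correction (main 20). Members lower with PA against WT were 3 with library size only (main 6), and members lower in sgZHX2 were 5 with the GC correction (main 8). For the difference of the sgZHX2 effects, higher members were 1 (main 3) and lower members 9, or 10 with the block added (main 17).

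ATF4 in hypoxia was called in the opposite direction (-0.16 with library size only and -0.34 with the GC correction). Some named members changed sign with small values and lost their call. They were SLC38A2 in hypoxia (0.00 with the GC correction) and SESN2 with PA against vector (0.02 with library size only, 0.03 with the GC correction). With the GC correction they were also SLC7A11 and XPOT with PA (-0.06 and -0.04) and SLC3A2 with SA (0.02), against vector. The cause was not tested.

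The replicate block alone ended 2 member calls, SLC38A2 with shZHX2 vector (adjusted p = 0.0506) and ATF3 with PA against vector (adjusted p = 0.0514), by edgeR. Pairing by replicate number was not established in any table.

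Over all genes, calls that moved by more than 1.5 times were hypoxia higher (6421 to 3385 with library size only), PA against vector higher (3536 to 5804) and lower (3270 to 1794), PA against WT lower (4826 to 2913), SA against vector lower (3072 to 1768 with the GC correction), and the difference of the sgZHX2 effects higher (1891 to 807) and lower (1315 to 387 with the GC correction, 584 with DESeq2 and 866 without teton_control replicate 1). With DESeq2, 72.7% of the calls of that difference were higher in place of 59.0%. Members with few counts, such as CHAC1 and ASNS in the hexanediol controls, limit the precision of their folds.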

Other observations

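Levels of DDIT4 in hypoxic control cells differed widely between the tables, which were normalised separately, at 279 ± 9.19 CPM in shCtrl hypoxia, 32.2 ± 1.38 in the hexanediol control, 3425 ± 50.05 in shCtrl vector and 2012 ± 36.1 in sgCtrl (SD, n = 3). ASNS was at 0.525 ± 0.0742, 0.228 ± 0.0897, 3.40 ± 0.44 and 5.47 ± 0.33 CPM in the same groups. These values are descriptive, and no test was made across tables. The ASNS levels are uncertain because of its exon overlap with AC079781.5.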
